A study of Schmidtea mediterranea with 171 samples.

Results

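The 5 transcripts named as markers of the σ-class of planarian stem cells were followed cell by cell: soxP-1 (SmedASXL_013552), soxP-2 (SmedASXL_013986), nlk-1 (SmedASXL_005509), fgfr-4 (SmedASXL_016233) and inx-13 (SmedASXL_013857). They were taken as genes named for this class, with earlier results of these data known. Each transcript was paired with its name by the values that the study lists under that name. They are 5 of the 67983 transcripts counted in the series. Levels were read in 96 single X1s, 72 single X2s, 2 tubes of 200 X1s and 1 tube of 200 X2s. All cells came from heads of the asexual clonal strain CIW4 of Schmidtea mediterranea, were labelled as amputation fragments of wild-type animals starved for 1 week, and were sorted by DNA content: X1s are the cycling stem cells, and X2s are mostly their early progeny. The heads of many animals were pooled before the sort, and the labels give neither the animal nor the sort of a cell. Each gate therefore counts as a single sample here, and cells were compared without a test. Intervals on shares of cells are exact 95% Clopper-Pearson intervals, those on tube levels are exact 95% Poisson intervals, and both cover counting error only. Where no cell of a group had the reads asked for, the share that this allows is given as 3 cells of the group, a limit on cells with such reads and not on cells that express the gene.

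Neoblasts are the dividing adult stem cells of planarians and replace every tissue, and most express piwi-1, an Argonaute family gene. σ-class neoblasts are a broad class of them that divides after injury and has been proposed to give rise to the ζ-class, the neoblasts of the epidermal lineage. The markers of the σ-class are of several kinds: soxP-1 and soxP-2 encode transcription factors with an HMG box, nlk-1 encodes a nemo-like kinase of the MAP kinase group, fgfr-4 encodes a receptor tyrosine kinase of the fibroblast growth factor receptor family, and inx-13 encodes an innexin, the protein of invertebrate gap junctions.

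X1s had a median of 3183241 reads assigned to transcripts (813476 to 20223715) and X2s 2739700 (550080 to 4798588). An X1 held reads of 5130 ± 1822 transcripts (mean ± SD over cells) and an X2 of 2054 ± 818. The authors' size factor averaged 0.926 in X1s and 2.06 in X2s, so that the detection threshold of 5 normalized counts (reads divided by the size factor) took a mean of 4.63 reads in an X1 and 10.3 in an X2. Counts per 1000000 assigned reads (CPM) are therefore given beside the normalized counts. The stem cell marker piwi-2, another Argonaute family gene, was detected in all 96 X1s and in 61 of 72 X2s, and piwi-1 in 84 X1s and 48 X2s. At 1 read or more, piwi-2 was in every cell of both gates and piwi-1 in 88 X1s and 70 X2s. The mean CPM of both was higher in X2s (510 against 408 for piwi-1 and 1036 against 763 for piwi-2). At 50 or more reads, piwi-1 was in 66 X1s and 32 X2s, and piwi-2 in 89 and 41. X1s thus stood above X2s in these genes at the threshold and at 50 reads, but not at 1 read or in mean CPM.

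Every σ-class marker was below the threshold in most cells of both gates and far above it in some. soxP-1 was detected in 37 of 96 X1s (38.5%, interval 28.8 to 49.0%), nlk-1 in 38 (39.6%, 29.7 to 50.1%), fgfr-4 in 27 (28.1%, 19.4 to 38.2%), soxP-2 in 24 (25.0%, 16.7 to 34.9%) and inx-13 in 15 (15.6%, 9.02 to 24.5%). The order of the 5 genes was thus nlk-1, soxP-1, fgfr-4, soxP-2 and inx-13, in which each gene's interval overlapped that of its neighbour. By comparison, piwi-1 was detected in 87.5% of X1s (79.2 to 93.4%), above the intervals of all 5 genes.

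At the threshold, which took more reads in an X2, detection was lower in the X2s for each gene. nlk-1 was detected in 11 of 72 X2s (15.3%, 7.88 to 25.7%), soxP-1 in 10 (13.9%, 6.87 to 24.1%) and soxP-2 in 12 (16.7%, 8.92 to 27.3%). The receptor and the innexin were the rarest. fgfr-4 was detected in 3 X2s (4.17%, 0.868 to 11.7%), and inx-13 had no read in any of the 72 X2s, which allows up to 4.17% of X2s with a read. For soxP-2 the intervals of the 2 gates overlapped. No share over all transcripts was taken for detection by gate, so the lower detection in X2s cannot be called particular to these genes. At 1 read or more, soxP-2 was in 47.9% of X1s and 47.2% of X2s, and nlk-1 in 58.3% and 54.2%. The shares were 54.2% and 41.7% for soxP-1, 33.3% and 8.33% for fgfr-4, and 16.7% and 0% for inx-13.

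**Figure D1:**
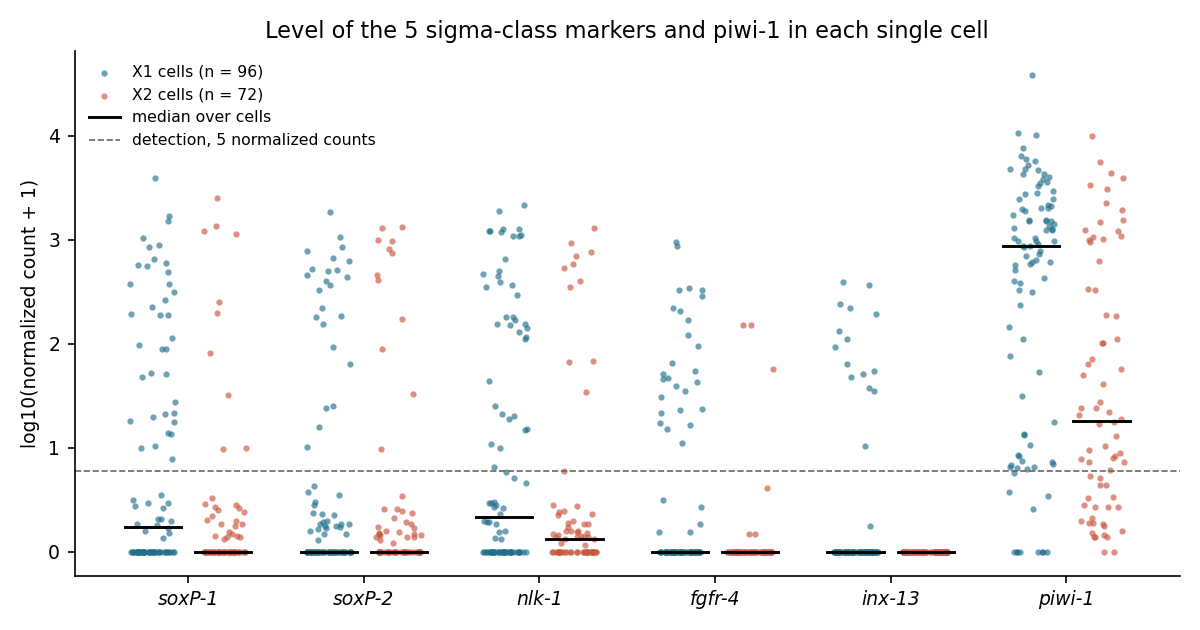
Normalized count of each of the 5 genes and of piwi-1 in every single cell, on a log10 scale after adding 1, with X1s in blue and X2s in red. Points are cells, black bars are medians over the cells of a gate, and the dashed line is the detection threshold of 5 normalized counts. Each σ-class marker splits into cells at or near 0 and a smaller set of high cells, and inx-13 has no X2 off the baseline.

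The transcription factor soxP-1 ran from 0 to 3884 normalized counts in X1s with a median of 0.736, and from 0 to 2522 with a median of 0 in X2s. Among the cells in which it was detected, its median was 189 normalized counts in X1s and 224 in X2s. In CPM these medians were 40.9 in X1s and 136 in X2s. The gates overlapped along most of the range, with more cells above the threshold among the X1s and, in CPM, the higher median of such cells among the X2s. In reads, 44 X1s had none, 17 had 1 to 4, 10 had 5 to 49 and 25 had 50 or more. In X2s these classes held 42, 18, 4 and 8 cells. The highest X1, cell 27, held 3884 normalized counts of soxP-1 and 1095 of nlk-1 with 12.1 of piwi-1. The highest X2, cell 30, held 2522 normalized counts of soxP-1 and none of the other 4 genes.

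The other SoxP gene, soxP-2, had few cells at middle levels. It ran from 0 to 1856 normalized counts in X1s and from 0 to 1321 in X2s, with a median of 0 in both gates. In reads, 50 X1s had none, 23 had 1 to 4, 5 had 5 to 49 and 18 had 50 or more, and in X2s these classes held 38, 22, 1 and 11 cells. The median of the cells with detection was 383 normalized counts in X1s and 599 in X2s. In CPM the gap was wider, with a median of 80.9 in the X1s with detection and 352 in the X2s with detection.

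The kinase nlk-1 ran from 0 to 2159 normalized counts in X1s (median 1.142) and from 0 to 1301 in X2s (median 0.326). It was the gene with the most cells at a read or more, 56 X1s and 39 X2s, but in X2s these fell into 28 cells of 1 to 4 reads, none of 5 to 49 and 11 of 50 or more. The median of the cells with detection was 181 normalized counts in X1s and 535 in X2s. The highest X1, cell 29, held 2159 normalized counts of nlk-1 with 2.413 of piwi-1, and the highest X2, cell 16, held 1301.

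The receptor fgfr-4 was lower where it was present. It ran from 0 to 952 normalized counts in X1s, with a median of 50.6 in the 27 X1s with detection. The 3 X2s with detection held 56.1, 149 and 151 normalized counts, within the range of the X1s. Both X1s with the most fgfr-4, cells 20 and 22 at 952 and 861 normalized counts, also held much piwi-1 (4760 and 10639 normalized counts). The innexin inx-13 ran from 0 to 387 normalized counts in X1s, with a median of 92.5 in the 15 X1s with detection. Only 2 X1s had 1 to 4 reads of inx-13 and 80 had none, so that it lacked the fringe of low cells seen for soxP-1, soxP-2 and nlk-1. No X1 numbered 49 to 72 in the labels had a read of it, against 3, 5 and 7 X1s with detection in the other blocks of 24 numbers.

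How different the gates looked depended on whether cells with 1 to 4 reads were counted. At 1 read or more, 83.3% of X1s and 84.7% of X2s held at least 1 of the 5 genes, and at 5 normalized counts 71.9% (61.8 to 80.6%) and 37.5% (26.4 to 49.7%). At 50 normalized counts the shares were 60.4% and 33.3%. These low cells were also unevenly spread within the X1s: among the X1s numbered 1 to 24, soxP-1 had 1 cell with 1 to 4 reads and soxP-2 and nlk-1 none, whereas among the X1s numbered 73 to 96 the counts were 6, 11 and 7. The labels do not say what a block of numbers stands for. The 2 blocks also differed in transcripts per cell, with means of 3390 and 6639, whose part in the low counts was not tested.

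The mean level over all cells of a gate depended on the scale. In normalized counts, the means in X1s and X2s were 162 ± 487 and 94.4 ± 382 for soxP-1 (SD over cells), 108 ± 279 and 102 ± 297 for soxP-2, and 194 ± 431 and 79.7 ± 239 for nlk-1. For fgfr-4 they were 46.2 ± 146 and 5.00 ± 25.6, and for inx-13 they were 21.2 ± 67.7 and 0. On this scale 3 of the 5 genes (nlk-1, fgfr-4 and inx-13) were at least 2-fold higher in X1s, beside 67.8% of the 15473 transcripts that had a read in 10% or more of a gate's cells, so the count was not above that background. Without the filter on reads the share was 38.2%, and the filter bears on this reading, since fgfr-4 (reads in 6 of 72 X2s) and inx-13 (in none) pass it only through the X1s. No gene of the 5 was at least 2-fold higher in X2s, beside 3.48% of transcripts.

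In CPM the order of the gates turned for both transcription factors, and the kinase was level. The mean was 42.5 CPM in X1s and 69.3 CPM in X2s for soxP-1, 21.9 and 62.0 for soxP-2, and 51.5 and 52.0 for nlk-1. fgfr-4 stayed higher in X1s (9.26 and 2.92 CPM), and inx-13 had 6.87 CPM in X1s. On this scale 2 of the 5 genes, fgfr-4 and inx-13, were at least 2-fold higher in X1s (31.4% of the 15473 transcripts that pass the filter on reads) and 1, soxP-2, in X2s (12.7%). fgfr-4 and inx-13 pass that filter only through the X1s, and the CPM share without the filter was not taken, so their count says little beside it. The log2 ratio of X1s over X2s, with 1 added to each mean, was 0.77 for soxP-1, 0.08 for soxP-2, 1.275 for nlk-1 and 2.98 for fgfr-4 in normalized counts, and −0.69, −1.46, −0.01 and 1.389 in CPM. The median of all transcripts moved from 1.672 to 0.35 between these scales, and relative to it soxP-1, soxP-2 and nlk-1 lay below the median and fgfr-4 above it on both. For inx-13 no ratio is given, since without a read in the single X2s its size is set by the 1 added to each mean. Counting inx-13 as at least 2-fold higher in X1s therefore holds for the single cells only. The X2 tube held 98 reads of inx-13, at 7.21 CPM between the X1 tubes at 3.37 and 7.60 CPM.

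A few X2s carried these means. The highest 3 of 72 X2s held 81.0% of the summed CPM of soxP-1, 49.2% of that of soxP-2, 56.5% of that of nlk-1 and 98.0% of that of fgfr-4. In X1s, the highest 3 of 96 cells held 40.0%, 30.5%, 34.7% and 36.4%. Without the highest cell of each gate the mean of soxP-1 was 34.1 CPM in X1s and 39.7 in X2s, and that of nlk-1 was 44.0 and 41.5, so that the small difference of nlk-1 changed direction.

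The 5 genes were not all detected at the threshold in any cell, while 2 or more were in 47 of the 96 X1s. Of the 96 X1s, 27 had none of them, 22 had 1, 26 had 2, 17 had 3, 4 had 4 and none had all 5 at the threshold, which allows up to 3.12% of X1s. At 1 read or more, 4 X1s held reads of all 5 genes and no X2 did. The X2s counted 45 with none, 19 with 1, 7 with 2 and 1 with 3. The mean was 1.469 ± 1.196 genes per X1 (SD over cells) and 0.50 ± 0.73 per X2, and 47 X1s (49.0%, 38.6 to 59.4%) and 8 X2s (11.1%, 4.92 to 20.7%) held 2 or more. With every cell thinned to 100000 assigned reads and 1 read taken as detection, the means were 1.146 and 0.556 genes, and 35 X1s and 8 X2s held 2 or more. Thinned cells still differed in transcripts per cell, at 2042 ± 602 in X1s and 755 ± 366 in X2s.

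**Figure D2:**
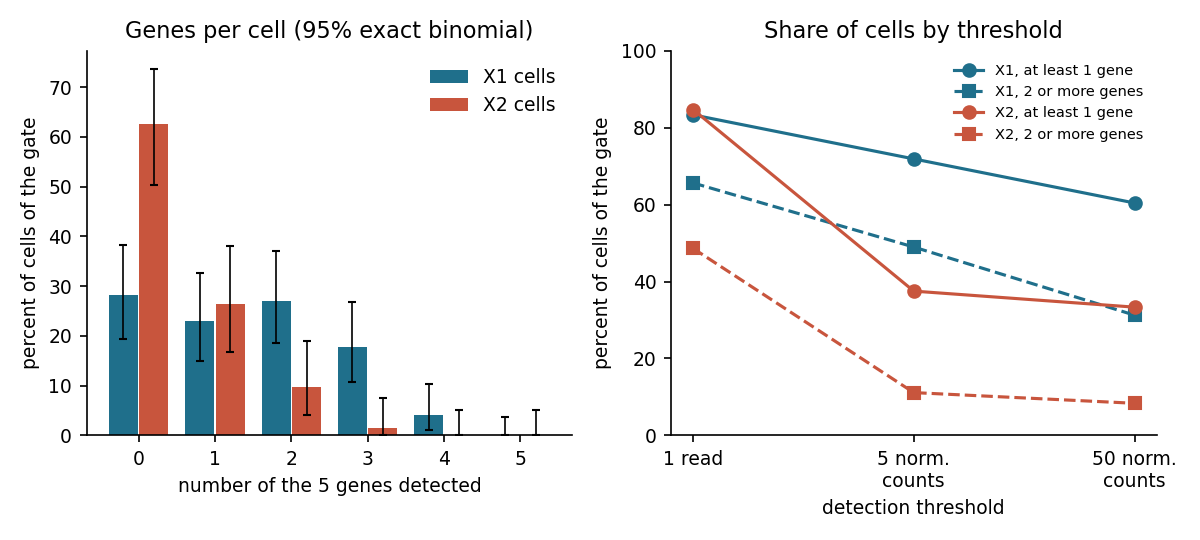
Left, percent of X1s (blue) and X2s (red) in which 0 to 5 of the genes were detected at 5 normalized counts, with exact 95% binomial intervals as bars. Right, percent of cells with at least 1 gene (circles) and with 2 or more (squares) at thresholds of 1 read, 5 and 50 normalized counts, where the gates meet at 1 read for at least 1 gene (83.3% and 84.7%).

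The cells with several genes showed no fixed set. The 69 X1s with at least 1 gene fell into 25 combinations, the most frequent being soxP-1 with nlk-1 and nothing else (9 cells), soxP-1 alone (8 cells), nlk-1 alone, soxP-2 with nlk-1, and soxP-1 with nlk-1 and fgfr-4 (5 cells each). Among the 4 X1s with 4 genes, cell 96 had 859 normalized counts of soxP-1, 460 of soxP-2, 1195 of nlk-1 and 34.4 of inx-13. Cell 87 lacked soxP-2 at the threshold and had 189 normalized counts of soxP-1, 388 of nlk-1, 366 of inx-13 and 284 of fgfr-4. Cell 68 had 881 of soxP-1 and 859 of soxP-2 but 5.54 of nlk-1 and 41.6 of fgfr-4, and cell 82 had at most 169 of any of its 4 genes. The lone X2 with 3 genes, cell 16, had 1204 normalized counts of soxP-1, 1301 of nlk-1 and 8.71 of soxP-2.

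Pair by pair, 8 of the 10 pairs were detected together in more X1s than the product of their shares gives, beside 57.8% of all pairs among the 9196 transcripts detected in at least 10% of X1s. The pair soxP-1 and nlk-1 had the largest excess in cells, with 22 X1s against a product of 14.6 cells: 59.5% of the soxP-1 cells held nlk-1, and 57.9% of the nlk-1 cells held soxP-1. soxP-2 and nlk-1 were together in 13 X1s (product 9.50) and inx-13 and fgfr-4 in 8 (product 4.22). The 2 SoxP genes were together in 7 X1s, below their product of 9.25, and soxP-2 and inx-13 in 3 (product 3.75). Together, the products of the shares give 16.2 X1s with none of the genes where 27 were counted, and 44.2 with 2 or more where 47 were counted. The X1s with none held reads of 4185 transcripts on average and those with 4 genes 7218, and over 96 X1s the number of genes had a Spearman correlation of 0.32 with transcripts per cell, whose part in the joint detection was not tested.

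Levels were compared in the same way. Over the 96 X1s, which share a gate and differ in depth, the Pearson correlation of log2(CPM + 1) was 0.32 between soxP-1 and nlk-1, 0.25 between inx-13 and fgfr-4, 0.22 between soxP-2 and nlk-1, and 0.01 between soxP-1 and soxP-2. Among the 5547 other transcripts at 5 CPM or more in at least 10 X1s, nlk-1 was in place 44 by likeness to soxP-1, and soxP-1 in place 76 by likeness to nlk-1, while soxP-2 was in place 3322 for soxP-1. The transcripts most like each gene reached correlations of 0.38 to 0.51 and had no name in the files. The closest were SmedASXL_019327 to inx-13 (0.51) and SmedASXL_014761 to nlk-1 (0.46).

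The link with piwi-1 differed between genes. Of the 84 X1s with piwi-1, 35 held soxP-1 (41.7%, 31.0 to 52.9%), 26 held fgfr-4 (31.0%, 21.3 to 42.0%) and 14 held inx-13 (16.7%, 9.42 to 26.4%). Of the 12 X1s without piwi-1, 2 held soxP-1 (16.7%, 2.09 to 48.4%), and 1 each held fgfr-4 and inx-13 (8.33%, 0.211 to 38.5%). For soxP-2 and nlk-1 the shares went the other way, with 20 of 84 and 4 of 12 cells for soxP-2 (23.8% and 33.3%) and 33 of 84 and 5 of 12 for nlk-1 (39.3% and 41.7%). Thus 3 of the 5 genes had the larger share in X1s with piwi-1, beside 61.5% of 9195 transcripts, and every pair of intervals overlapped. piwi-1 was detected in 18 of the 24 X1s numbered 1 to 24 and in all 24 numbered 73 to 96, so its detection went partly with the block of numbers. Without the X1s numbered 1 to 24, 2 of the 5 genes had the larger share, and the difference for inx-13 was 0 percentage points. At least 1 of the genes was detected in 61 of the 84 X1s with piwi-1 (72.6%, 61.8 to 81.8%) and in 8 of the 12 without (66.7%, 34.9 to 90.1%). At 2 or more genes the counts were 44 of 84 (52.4%) and 3 of 12 (25.0%). The X1s with piwi-1 held reads of 5291 ± 1852 transcripts and those without 4003 ± 1105, whose part in these shares was not tested.

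The median level of piwi-1 was higher in the X1s with a marker than in the others for each of the 5 genes. No share over all transcripts was taken for this measure, so it cannot be told whether this is particular to the 5 genes. The detection and the piwi-1 level were both divided by the size factor of the cell. In normalized counts the rank correlations with piwi-1 ran from 0.06 for nlk-1 to 0.30 for fgfr-4. By another measure, rank correlation of CPM with piwi-1, 61.7% of 15132 transcripts were above 0 in X1s. The median of piwi-1 was 1511 normalized counts in the X1s with fgfr-4 and 575 in those without, and 1244 and 612 with and without soxP-1. For nlk-1 the medians were 1135 and 757, for inx-13 1034 and 856, and for soxP-2 1002 and 794. By the number of genes, the median of piwi-1 was 110 normalized counts in the 27 X1s with none, 804 with 1, 1298 with 2, 978 with 3 and 1523 with 4. piwi-1 was thus lowest in the X1s with none of the genes and had no steady order above that. The X1s with none also held the fewest transcripts per cell (mean 4185), whose part in the piwi-1 level was not tested.

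**Figure D3:**
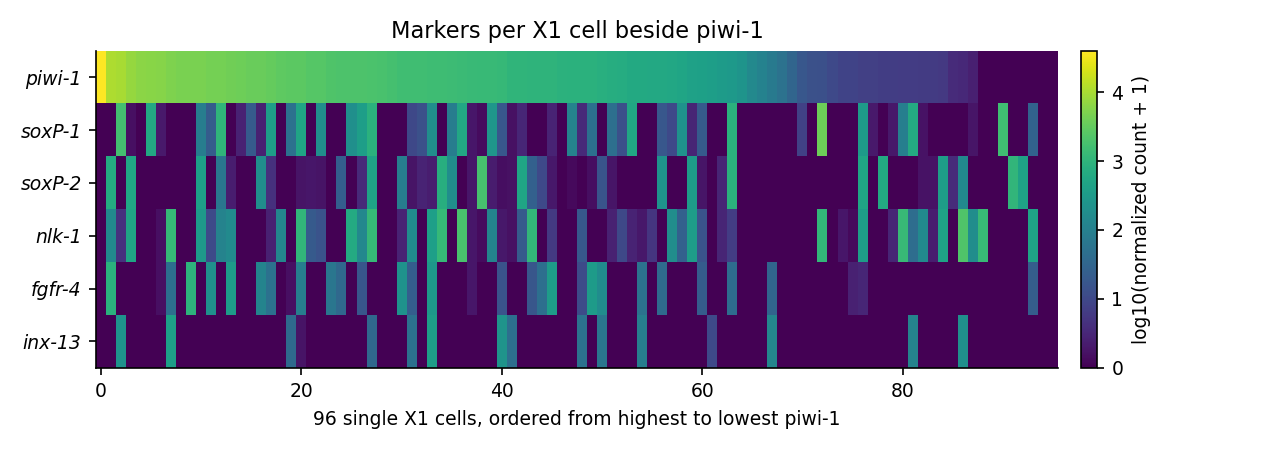
Level of piwi-1 and of the 5 genes in each of the 96 X1s as log10 of the normalized count plus 1, with cells in columns ordered from highest to lowest piwi-1. High cells of soxP-1, soxP-2 and nlk-1 appear along the whole order, including cells with little piwi-1. Among the 12 X1s without piwi-1, nlk-1 was detected in 5, soxP-2 in 4, soxP-1 in 2 and fgfr-4 and inx-13 in 1 each.

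As a rank correlation of CPM over the 96 X1s, which share a gate and cover a wide range of depth, the link with piwi-1 was 0.28 for soxP-1, 0.28 for fgfr-4, 0.17 for inx-13, 0.13 for soxP-2 and 0.11 for nlk-1. All 5 were above 0, as were 61.7% of the 15132 transcripts with reads in at least 10% of X1s, whose median was 0.04 and whose central 90% ran from −0.20 to 0.26. soxP-1 and fgfr-4 lay above that range, with 3.42% and 3.85% of transcripts higher than each, and the other 3 genes lay within it. In normalized counts the correlations were 0.18 for soxP-1 and 0.30 for fgfr-4, and in cells thinned to 100000 reads 0.16 and 0.29. With transcripts per cell the genes had rank correlations of 0.34 for soxP-1, 0.30 for soxP-2, 0.46 for nlk-1, 0.16 for fgfr-4 and 0.03 for inx-13, and piwi-1 itself 0.17.

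**Figure D4:**
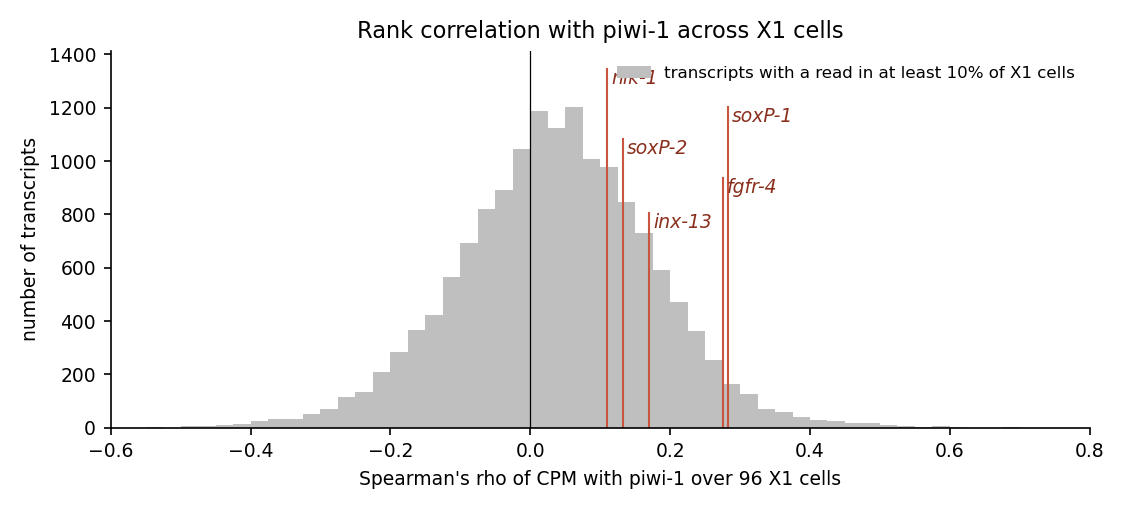
Number of transcripts by Spearman correlation of CPM with piwi-1 over 96 X1s, for the 15132 transcripts with reads in at least 10% of these cells, with the 5 genes marked by red lines. All 5 lie above 0, soxP-1 and fgfr-4 (both 0.28) at the right edge of the distribution and nlk-1 (0.11) nearest its centre.

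Among X2s the link with piwi-1 also differed between genes. Of the 48 X2s with piwi-1, 7 held soxP-1, 10 soxP-2, 7 nlk-1 and 3 fgfr-4; of the 24 without, 3, 2, 4 and none did. The rank correlation with piwi-1 over 72 X2s was −0.09 for soxP-1, 0.17 for soxP-2 and −0.15 for nlk-1, where 60.6% of 4957 transcripts were above 0; fgfr-4 and inx-13 had reads in too few X2s to be counted there. The 10 X2s with soxP-1 had a median of 13.6 normalized counts of piwi-1, and the others 18.2. For nlk-1 the medians were 7.26 and 17.9, although X2 cell 58, with 692 normalized counts of nlk-1, held 982 of piwi-1. The other genes went the other way, with medians of 339 and 13.9 with and without soxP-2 and 1077 and 15.8 with and without fgfr-4.

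More stem cell markers were detected in the X1s with more σ-class markers. Of 7 stem cell markers (piwi-1, piwi-2, piwi-3, bruli, vasa-1, vasa-2 and HP1-1), the 47 X1s with 2 or more of the 5 genes held 6.04 ± 1.122 (SD over cells), those with 1 gene 5.50 ± 1.97 and those with none 4.89 ± 1.826. Their summed level had a median of 1867 CPM (range 263 to 8488), 1659 CPM (127 to 4581) and 660 CPM (4.63 to 7704) in these cells. Neural markers (6 genes, among them pc2, synapsin and chat) went the other way in level, with medians of 24.7 CPM (0.171 to 1050), 54.7 CPM (0.316 to 4795) and 85.6 CPM (0 to 3435), while at least 1 neural marker was detected in 78.7%, 90.9% and 96.3% of the cells. The ranges overlapped widely for both lists. In detection, pc2 showed no such opposition: of the 46 X1s with pc2, 33 held at least 1 of the 5 genes. The product of the shares gives 33.1. Transcripts per cell moved with the number of genes too, at means of 4185 in X1s with none, 5432 with 1, 5409 with 2, 5320 with 3 and 7218 with 4, and their part in the marker counts was not tested. In X2s with 2 or more, 1 and none of the genes, 3.88, 2.526 and 2.533 stem cell markers were detected on average. The neural median in these 8, 19 and 45 X2s was 39.4 CPM (0 to 892), 6.23 CPM (0 to 441) and 6.15 CPM (0 to 9959). At least 1 neural marker was detected in 62.5%, 63.2% and 60.0% of them. The order of the X1s was thus not seen in X2s, where the ranges overlapped widely and the first group was small.

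X1s with a ζ-class marker also held σ-class markers. Of the 19 X1s with zfp-1, a zinc finger gene that marks the ζ-class, 16 held at least 1 σ-class marker, where the product of the shares gives 13.7. fgfr-4 was detected in 9 of these cells (product 5.34), inx-13 in 5 (2.97), nlk-1 in 8 (7.52), soxP-1 in 5 (7.32) and soxP-2 in 1 (4.75). Of the 10 X1s with soxP-3, a SoxP gene that also marks the ζ-class, 8 held at least 1 of the 5 genes (product 7.19) and 1 held soxP-2 (2.5).

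The genes were also read in the 10 groups of the study's clustering, rebuilt from its 1000 most variable transcripts. soxP-1 was in place 895 of that ranking and so helped to make the groups. The other 4 genes lay outside it, nlk-1 and soxP-2 nearest at places 1816 and 1755. These levels are a description only. In Group 1, the largest with 55 X1s, nlk-1 and soxP-1 were each detected in 20 cells, fgfr-4 in 16, soxP-2 in 15 and inx-13 in 8. In Group 2, with 7 X1s and the highest piwi-1 (3591 to 38644 normalized counts), fgfr-4 was in 3 cells and had its highest mean, 265 normalized counts, which came to 151 without the highest cell. These X1s were numbered 3 to 22 in the labels and held the fewest transcripts of the groups of X1s (mean 3459). The part of numbers and transcripts per cell in these levels was not tested.

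Group 3, 17 X1s in which piwi-1 was mostly low (median 2.723 normalized counts, highest 909), kept some of the genes. nlk-1 was detected in 6 of its cells, soxP-1 in 4 and soxP-2 in 3, with means of 278, 325 and 110 normalized counts. The mean of soxP-1 came to 103 without its highest cell. fgfr-4 was detected in 1 cell at 22.1 normalized counts, and inx-13 had no read in any of the 17 cells, which allows up to 17.6% of them with a read. All 17 X1s of Group 4 held at least 1 of the genes, with 2.18 genes per cell, soxP-1 in 11 cells and inx-13 in 6. These X1s, numbered 78 to 96 in the labels, held the most transcripts of any group (mean 6822), so that group, numbers and transcripts per cell cannot be told apart. The 17 X2s of Group 4 had 0.706 genes per cell and the 28 X2s of Group 5 had 0.607, and Groups 7 and 9, with 4 and 2 X2s, held none of the 5 genes at the threshold.

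The tubes gave the level in pools of 200 cells, where more cells with a gene and more RNA per cell cannot be told apart. soxP-1 was at 31.0 CPM (28.5 to 33.6) and 25.7 CPM (22.7 to 28.9) in the X1 tubes and at 71.9 CPM (67.5 to 76.6) in the X2 tube. The X1 tubes held 32.7 and 21.3 CPM of soxP-2 and the X2 tube 56.3, and for nlk-1 the 3 levels were 19.4, 29.0 and 74.0 CPM. For these 3 genes the X2 tube lay above both X1 tubes. fgfr-4 was at 16.6 CPM (14.8 to 18.5) in X1 tube 1 and 3.00 CPM (2.05 to 4.24) in X1 tube 2, with the X2 tube between them at 7.57 CPM (6.18 to 9.19). inx-13 gave 3.37 CPM and 7.60 CPM in the X1 pools against 7.21 CPM for X2s, again within the spread of the X1 tubes. For piwi-1 the X2 tube, at 475 CPM, also lay between the X1 tubes, at 427 and 548 CPM.

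With the X1 tubes against the X2 tube in edgeR's quasi-likelihood test, which assumes that the lone X2 tube varies like the X1 tubes, none of the 5 genes passed an adjusted p of 0.05, beside 0.147% of 19002 transcripts (28 transcripts). At an unadjusted p under 0.05 there was 1 of the 5, nlk-1, and 1188 of all transcripts. The log2 ratio of X1 over X2 was −1.67 for nlk-1 (p = 0.0345, adjusted p = 0.675), −1.45 for soxP-1 (p = 0.0549, adjusted p = 0.820) and −1.19 for soxP-2 (p = 0.113, adjusted p = 0.999), where the median of all transcripts was 0.22. DESeq2's Wald test also called none of the 5, with nlk-1 and soxP-1 at an unadjusted p of 0.0229 and 0.0327 and adjusted p-values of 0.753 and 0.890. For inx-13 and fgfr-4 the ratio was −0.43 and 0.16 (adjusted p = 0.999 for both), and its direction rested on X1 tube 1: against X1 tube 2 alone the ratios were 0.15 and −1.26.

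**Figure D5:**
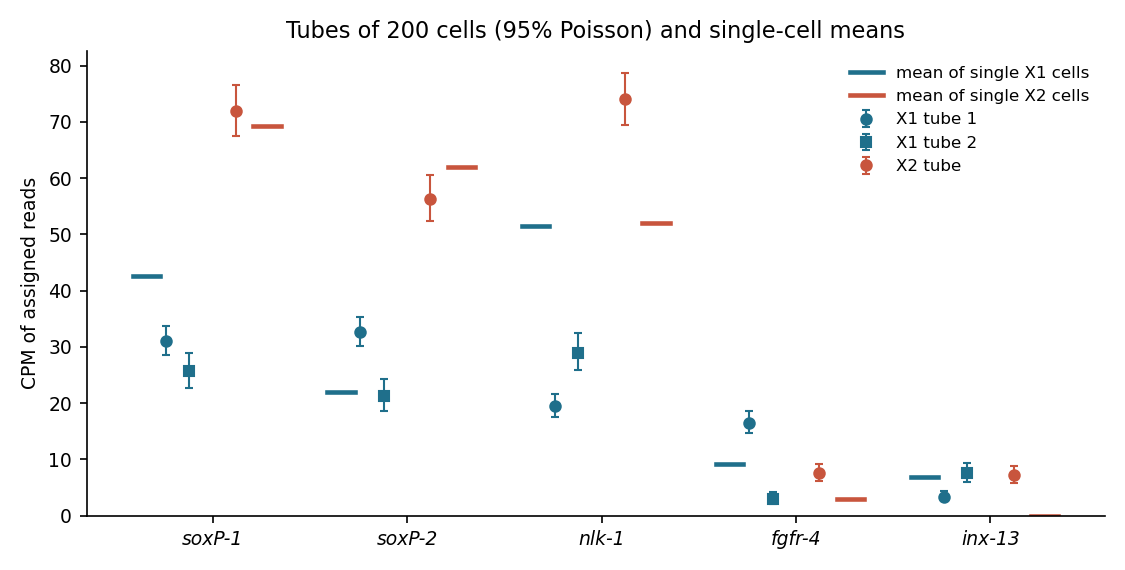
CPM of the 5 genes in the X1 tubes (blue circle and square) and the X2 tube (red circle) with exact 95% Poisson intervals as bars, beside the mean CPM of the single cells of each gate (short lines). For soxP-1, soxP-2 and nlk-1 the X2 tube (56.3 to 74.0 CPM) lies above both X1 tubes (19.4 to 32.7 CPM), while for fgfr-4 and inx-13 it lies within the X1 tubes' range.

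Set beside the single cells of its gate, a tube held between 0.324 and 2.6 times the mean CPM of the cells for the 4 genes with reads in both gates. For soxP-1 and soxP-2 the X2 tube was at 1.04 and 0.908 times the mean of the single X2s, although 3 cells carried 81.0% of the latter for soxP-1. inx-13 was the exception in the X2s: the tube held 98 reads of it and the 72 single cells none. Of the 2265 transcripts at 5 to 10 CPM in the X2 tube, 197 (8.70%) likewise had no read in any single X2, a comparison chosen after the values were seen.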

How the data were processed

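Single cells and tubes were prepared with Smartseq2 and Nextera XT. The authors trimmed single-end reads, aligned them with bowtie2 (2.2.4 per the labels) to the SmedASXL transcriptome and deposited raw counts per transcript; strand was not kept, so an antisense partner cannot be told apart. They also deposited a normalized signal, the counts over DESeq size factors, Winsorized at the 2 most extreme cells. Raw counts were used here, divided by the same size factors, which rest on 30 entries, 1 of them the unassigned reads (mean 31.6% of a cell's reads, 7.51 to 87.8%), or by assigned reads (CPM, counts per 1000000 assigned reads). Recomputed values differed from the deposited ones by at most 1.54e-07 of the value. No column was left unmapped.

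The files do not pair gene names with transcripts; the transcript of each of the 5 names was the one whose values were closest to those the study lists under that name. The genes, lists and tests were chosen with earlier results of these data known. Other transcripts were named by the highest Pearson correlation of log2(CPM + 1) over X1s. The third ζ-class marker fgfr-1 was not used here. Tubes were compared with edgeR 4.0.16 (quasi-likelihood, TMM, CPM above 1 in at least 1 tube, two-sided, Benjamini-Hochberg) and DESeq2 1.42.0, in R 4.3.3; nothing in the labels says that the X1 tubes are separate sorts, so p-values may measure technical spread. Cells were summarised in Python 3.11.15 with pandas 2.3.3 and scipy 1.17.1. Functions were tested on simulated data. Other thresholds, scalings, pseudocounts, thinning (seed 1) and left-out cells or tubes were tried.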

Additional observations from a re-analysis of the deposited data

How the results depend on the processing

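With 1 read as detection, 83.3% of X1s and 84.7% of X2s held at least 1 of the 5 genes and 65.6% and 48.6% held 2 or more. All 5 genes then had the larger share in X1s with piwi-1, set against only 8 X1s without a read of it. The differences for soxP-2 and nlk-1 thereby turned, to 25.0 and 36.4 percentage points, and that for soxP-2 turned to 1.549 in thinned cells. At 50 normalized counts 60.4% and 31.2% of X1s held at least 1 and 2 or more, and 36.5% of thinned X1s held 2 or more. The number of pairs above their product was 6 to 10 of 10. Log2 ratios of X1s over X2s turned in CPM (soxP-1 −0.69, soxP-2 −1.46, nlk-1 −0.013), with TMM (−1.17, −1.04 and −0.34) and in CPM without the highest cell of each gate (soxP-1 −0.21, soxP-2 −1.36; chosen after seeing the data). Without the X1s numbered 1 to 24, soxP-1 was also at least 2-fold higher in X1s (log2 ratio 1.00 in normalized counts). The share of all transcripts at least 2-fold higher in X1s was 38.2% without the filter on reads and 31.4% in CPM, and 12.7% were higher in X2s in CPM. DESeq2 called 57 transcripts between tubes and edgeR without the filter called 195, none of them among the 5 genes. Leaving out an X1 tube gave log2 ratios of −1.38 to 0.15 for inx-13 and −1.26 to 0.85 for fgfr-4. The causes were not tested. No paired analysis was possible because the numbers of cells only name them, the cell results come from no test, and the tubes share a single replicate number. The size factor set the threshold: 5 normalized counts took 1 to 18 reads in an X1 and 3 to 31 in an X2.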
